A study of Mus musculus with 6 samples.

Results

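Triglyceride stored in a fat cell is broken down in steps by lipases, and the products leave or enter the cell through dedicated carriers. This account covers 9 such genes in mouse fat: the intracellular lipid hydrolases Pnpla2, Lipe, Ces1d and Pnpla3, the secreted lipase Lpl, the glycerol channel Aqp7, and the fatty acid uptake and binding genes Cd36, Fabp4 and Fabp5. They were chosen by gene name, and all 9 were found among the 12163 genes of the deposited expression table. RNA sequencing was done on total RNA from wild-type mice of the inbred strain C57BL/6, and compares grafts collected 7 days after grafting (3 libraries) with fat taken before grafting (3 libraries). Strain and genotype were the same in both groups, the submitters call the 3 libraries of each group biological replicates, and the labels state no age, depot, recipient or number of pooled animals.

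In white fat, adipose triglyceride lipase (ATGL) removes the first fatty acid from stored triglyceride, hormone-sensitive lipase (HSL) the next, and monoglyceride lipase the last. The freed glycerol leaves through aquaglyceroporin 7. In the other direction, lipoprotein lipase frees fatty acids from circulating lipoproteins at the capillary wall, CD36 helps them cross the membrane, and small binding proteins carry them in the cytosol. Several of these genes are not confined to adipocytes: macrophages also express Lpl, Cd36, Fabp4 and Fabp5, and capillary endothelium expresses Cd36 and Fabp4.

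Levels are given as normalized read counts, the authors' read counts divided by 1 factor per library, as means ± SD with n = 3. Reads over the listed genes numbered 13027776 to 15924559 per library. Libraries of 1 group correlated at 0.984 to 0.9923 and libraries of different groups at 0.7339 to 0.7756 (Spearman, over the 10854 tested genes). The listed genes were selected on the outcome: 10772 of the 10854 tested genes had an unadjusted p under 0.05. A gene was called at an adjusted p under 0.05 by limma, fitted to log2(normalized read count + 1) over all tested genes. By that rule 80.4% of the tested genes were called, 41.3% higher and 39.2% lower in grafts, and 51.3% of the calls were higher. After scaling the libraries to equal ribosomal protein genes, 26.2% of the calls were higher, and the median log2 fold change of all tested genes was -0.46 in place of 0.28.

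Of the 9 genes, 8 were called lower in grafts, 0 were called higher, and Fabp5 was not called. The number called in either direction is close to the 80.4% of the whole table, while the number called lower stands against 39.2% of tested genes. A log2 fold change of -4 or lower was reached by 7 of the 9 genes, against 4.49% of all tested genes, and the median was -4.71, against 0.28 over all tested genes. The groups did not overlap for 8 of the 9 genes, against 97.6% of all tested genes. Summed, the 9 genes took 0.335%, 0.186% and 0.143% of the listed reads in the 3 grafts, against 2.67%, 3.2% and 2.91% before grafting. In bulk tissue, fewer adipocytes and less of these RNAs per adipocyte cannot be told apart.

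**Figure D1:**
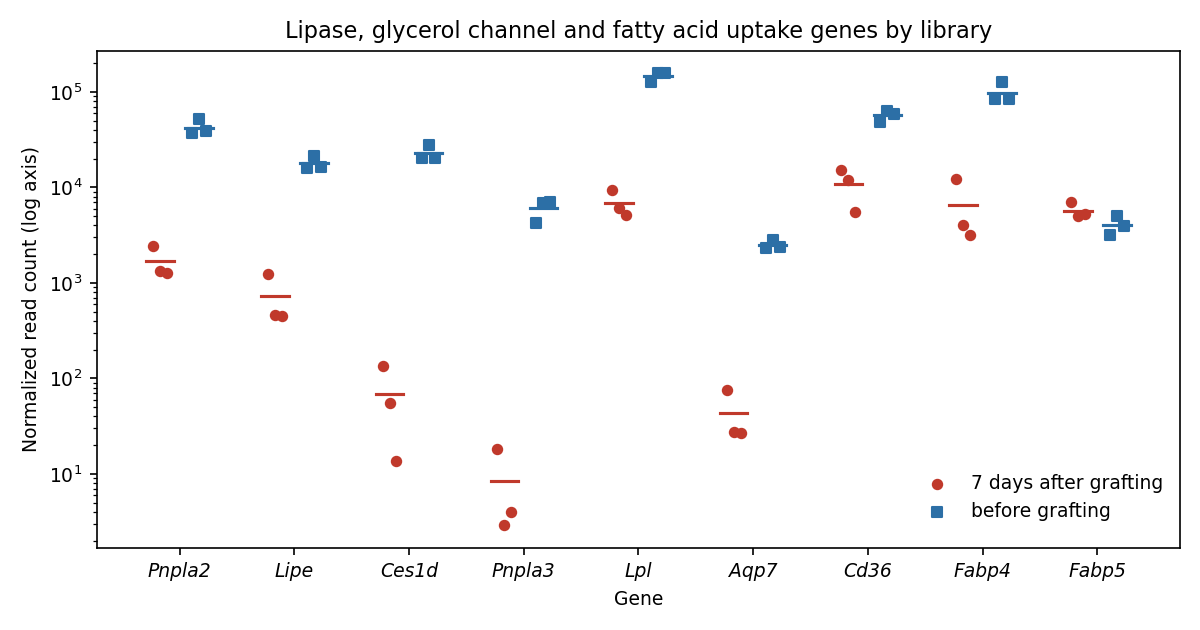
Normalized read count of each of the 9 genes (log axis) in each library: circles are the 3 grafts at day 7, squares the 3 libraries before grafting, and bars the group means. The graft values lie below those before grafting for 8 genes, and the groups overlap for Fabp5.

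Adipocyte markers fell in grafts, as most of these genes did, while macrophage and neutrophil markers rose. The 15 adipocyte markers were all called lower (median log2 fold change -6.12), and their summed level was 5154 to 18690 in grafts, against 319860 to 473982 before grafting. All 14 tested macrophage markers rose, with a median of 3.08, and their summed level was 211145 to 242570 in grafts, against 29213 to 33769 before grafting. The 7 tested neutrophil markers also rose, to a summed 58309 to 93569 in grafts, against 729 to 882 before grafting. Of 7 tested blood endothelial markers, 4 fell and 3 were not called, with a summed level of 5896 to 8719 in grafts, against 12942 to 16319 before grafting. Of 9 tested fibroblast and progenitor markers, 2 fell, 5 rose and 2 were not called, at a summed 624172 to 1058754 in grafts, against 112238 to 140387 before grafting. Over all tested genes 39.2% fell and 41.3% rose. Some chosen markers were not listed and have no value: 1 of macrophages, 3 of neutrophils, 5 of blood endothelium and 1 of fibroblasts and progenitors. The endothelial ones were Pecam1, Cdh5, Tie1, Vwf and Emcn. No listed marker of these 5 lists was at 0 in all grafts, and the part of these markers in the results below was not tested. The fat label fits the libraries before grafting by the adipocyte markers. Of 10 skeletal muscle genes 0 were listed. Of 10 epithelial genes, only Cdh1 was listed, at 51 to 89 in grafts, against 30 to 38 before grafting. Since the listed genes were selected on the outcome, a gene that is not listed is not shown to be absent from the tissue.

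The hydrolases of the lipid droplet and the endoplasmic reticulum fell in grafts by 24.8 to 725.7 times. Pnpla2, which encodes ATGL (chromosome 7, 141455198 to 141460743, plus strand, GRCm38), had 2451, 1332 and 1259 normalized read counts in the 3 grafts, against 37092, 51487 and 38624 before grafting. Every graft lay below every library before grafting. The means were 1681 ± 668 in grafts and 42401 ± 7906 before grafting, a 25.2-fold lower level, with a log2 fold change of -4.71 (SE 0.26, limma adjusted p = 1e-05). Lipe, which encodes HSL (chromosome 7, 25379527 to 25398710, minus strand), had 1250, 465.5 and 448.1 in grafts, against 15905, 21556 and 16255 before grafting. The mean was 24.8-fold lower, with a log2 fold change of -4.79 (SE 0.37, limma adjusted p = 7.56e-05). Graft replicate 1 held the highest Lipe level of the grafts, and without it the graft mean was 456.8 in place of 721.3. An antisense gene shares 918 exon bases with Lipe, and reads of the pair cannot be told apart where strand was not used in counting.

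The first and the next lipase of the pathway fell by nearly the same factor. Pnpla2 over Lipe was 1.96, 2.86 and 2.81 in the grafts, against 2.33, 2.39 and 2.38 before grafting. The log2 ratio differed by 0.08 between the groups, less than its SD of 0.31 among grafts (exact permutation test, two-sided, p = 0.8, adjusted over 3 ratios 0.8). With 3 libraries a group, the smallest p of the exact test is 0.1. The grafts lay on both sides of the range before grafting, so the ratio gave no consistent direction.

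Ces1d and Pnpla3 showed the largest decreases of the 9 genes. Ces1d, a carboxylesterase of the endoplasmic reticulum also known as triacylglycerol hydrolase (chromosome 8, 93166068 to 93197838, minus strand), had 135.6, 55.3 and 13.8 in grafts, against 20162, 27889 and 20486 before grafting. The grafts differed among themselves by far more than the libraries before grafting did. The mean was 334.8-fold lower (log2 fold change -8.86, SE 0.69, limma adjusted p = 7.41e-05), and without graft replicate 1 the graft mean was 34.6 in place of 68.2. Ces1d lies in a tandem cluster of Ces1 genes with similar sequence, so reads may be shared between copies. Pnpla3, or adiponutrin, a lipid droplet protein of the same family as ATGL (chromosome 15, 84167837 to 84187236, plus strand), had 18.1, 2.9 and 4.0 in grafts, against 4206, 6905 and 6990 before grafting. At most 18.1 normalized reads were left in a graft. The mean was 725.7-fold lower (log2 fold change -9.68, SE 0.56, limma adjusted p = 1.79e-05). Without graft replicate 1 the graft mean of Pnpla3 was 3.43 in place of 8.32. In the order of log2 fold changes from the lowest, Pnpla3 ranked 3 and Ces1d 9 among 10854 tested genes.

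Lpl, the secreted lipase of the set, fell by 21.2 times. Lipoprotein lipase is made by adipocytes and carried to the capillary lumen, where it splits lipoprotein triglyceride. Lpl (chromosome 8, 68880491 to 68907448, plus strand) had 9501, 6022 and 5205 in grafts, against 127336, 156483 and 156532 before grafting. The groups did not overlap, and the log2 fold change was -4.45 (SE 0.22, limma adjusted p = 6.32e-06). Of all reads over listed genes, Lpl alone took 0.0662%, 0.039% and 0.0357% in the grafts, against 0.991%, 1.08% and 1.17% before grafting. For the secreted against the intracellular lipase, Lpl over Lipe was 7.59, 12.9 and 11.6 in grafts, against 8.01, 7.26 and 9.63 before grafting. The groups overlapped, and the log2 ratio differed by 0.34 (exact permutation test, two-sided, p = 0.3, adjusted 0.45).

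Aqp7, the channel through which glycerol leaves the adipocyte, fell by 58.6 times. Aqp7 (chromosome 4, 41033074 to 41048139, minus strand) had 75.3, 27.2 and 26.7 in grafts, against 2336, 2832 and 2401 before grafting. Graft replicates 2 and 3 were nearly equal, and without graft replicate 1 the graft mean was 26.9 in place of 43.1. The log2 fold change was -6.01 (SE 0.37, limma adjusted p = 1.7e-05), close to the median of the adipocyte markers.

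Cd36 showed the smallest decrease among the genes that fell. CD36 is a membrane glycoprotein that promotes fatty acid uptake in adipocytes and also serves as a scavenger receptor of macrophages. Cd36 (chromosome 5, 17781690 to 17888801, minus strand) had 15362, 11819 and 5552 in grafts, against 47912, 63420 and 59065 before grafting. All grafts were lower than all libraries before grafting, by 5.21 times in the mean, with a log2 fold change of -2.49 (SE 0.34, limma adjusted p = 0.0013). Macrophage markers, whose cells also express Cd36, were higher in the same grafts, and their part in its level was not tested.

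The paralogous binding proteins Fabp4 and Fabp5, of the same gene cluster on chromosome 3, took different courses. Fabp4, also called aP2, the main cytosolic fatty acid carrier of adipocytes (10204088 to 10208576, minus strand), had 12331, 3996 and 3143 in grafts, against 84728, 126104 and 84450 before grafting. The mean was 15.2-fold lower, with a log2 fold change of -4.17 (SE 0.47, limma adjusted p = 0.00052). Graft replicate 1 stood above the other grafts, and without it the graft mean was 3569 in place of 6490. Fabp5, the epidermal type, which macrophages and adipocytes also express (10012548 to 10016607, plus strand), had 6954, 4963 and 5242 in grafts, against 3195, 4976 and 3962 before grafting. The groups overlapped, since graft replicate 2 lay just under replicate 2 before grafting. Its mean was 5720 ± 1078 in grafts and 4044 ± 894 before grafting, 1.41 times as high, and the log2 fold change of 0.51 (SE 0.19) was not called (limma adjusted p = 0.144). The call and the sign depended on the processing: it was called higher when p was adjusted over tested genes only (limma adjusted p = 0.0282) and without replicate 2 before grafting (log2 fold change 0.67), and with the ribosomal protein genes at no change the log2 fold change was -0.23.

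Within each library Fabp4 over Fabp5 was 1.77, 0.805 and 0.6 in the grafts, against 26.5, 25.3 and 21.3 before grafting. By count alone, not per length, Fabp4 thus exceeded Fabp5 in every library before grafting, while in grafts the counts were of the same order, with Fabp5 the higher in replicates 2 and 3. The log2 ratio averaged -0.07 ± 0.81 in grafts and 4.6 ± 0.17 before grafting (n = 3 each), a difference of -4.68. The groups did not overlap, and the exact permutation test gave its smallest possible p of 0.1 (two-sided, adjusted over 3 ratios 0.3). This ratio does not depend on how libraries are scaled. Fabp5 has a processed pseudogene, with which its reads may be shared.

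**Figure D2:**
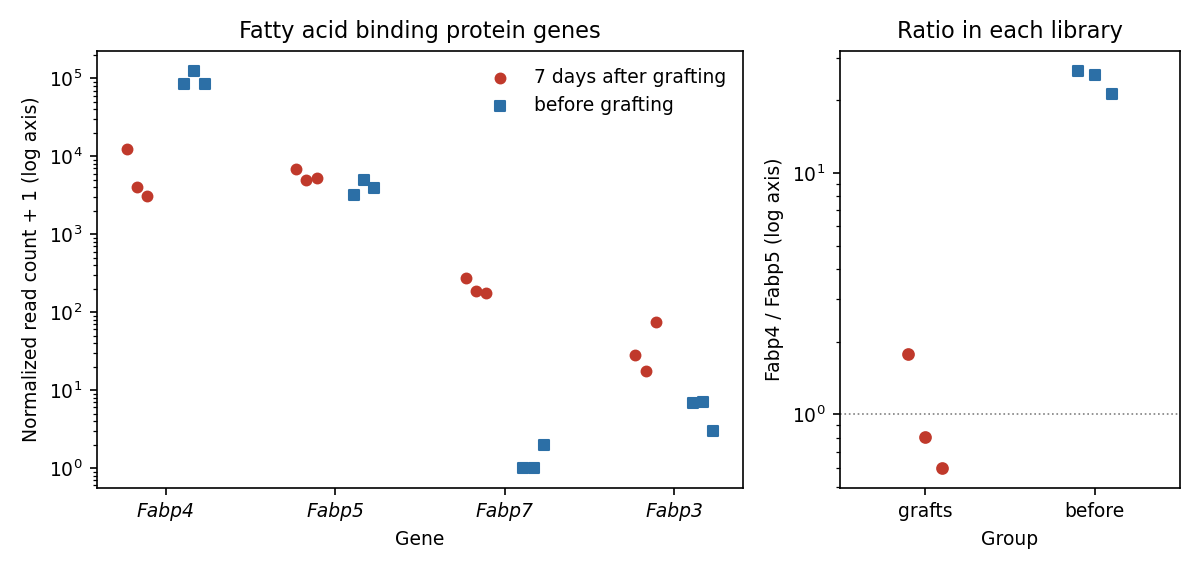
Left, normalized read count + 1 (log axis) of Fabp4, Fabp5, Fabp7 and Fabp3 in the 3 grafts (circles) and the 3 libraries before grafting (squares). Right, Fabp4 over Fabp5 in each library (log axis), with the dotted line at equal counts: grafts lie between 0.6 and 1.77, and libraries before grafting between 21.3 and 26.5.

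Graft replicate 1 had the highest level of the 3 grafts for 9 of 9 genes, against 41.4% of all tested genes, 14 of 15 adipocyte markers, 11 of 14 macrophage markers and 7 of 7 blood endothelial markers. Its level over the mean of the other grafts was 5.27 for Pnpla3, 3.92 for Ces1d, 3.45 for Fabp4, 2.8 for Aqp7, 2.74 for Lipe, 1.89 for Pnpla2, 1.77 for Cd36, 1.69 for Lpl and 1.36 for Fabp5. The 8 genes called lower stayed called when any 1 library was left out, with Cd36 at the highest adjusted p, 0.0155 (limma).

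**Figure D3:**
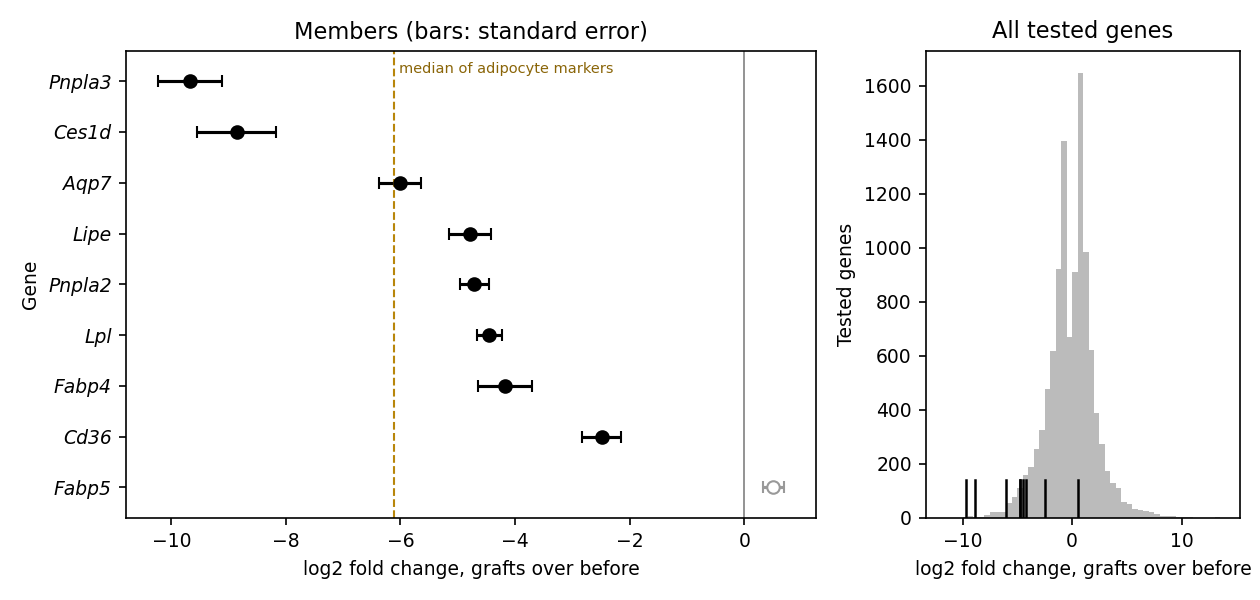
Left, limma log2 fold change of each gene, grafts over before grafting, with its standard error, filled where called; the dashed line is the median of 15 adipocyte markers, -6.12. Right, the same quantity for 10854 tested genes as a histogram, with the 9 genes as black ticks, most of them in its lower tail.

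Since the adipocyte markers were lower in grafts, each gene was also set against the mean log2 level of the 15 adipocyte markers in the same library, none of them among the 9 genes. That marker mean was 8.78, 6.99 and 6.79 in the grafts, against 13.71, 14.1 and 13.76 before grafting. Fabp5 stood 4.94 ± 0.85 above the markers in grafts and -1.9 ± 0.15 relative to them before grafting, a difference of 6.84 on the log2 scale. Cd36 differed by 3.84 in the same direction, Fabp4 by 2.17, Lpl by 1.88, Pnpla2 by 1.63 and Lipe by 1.54. These 6 genes were thus higher in grafts relative to the mean of the markers. The markers themselves varied widely, with log2 fold changes of -10.67 to -2.38, and Lipe, Pnpla2, Lpl, Fabp4 and Cd36 lay inside that range. Pnpla3 stood at -4.68 ± 0.3 in grafts and -1.33 ± 0.34 before grafting, and Ces1d at -1.92 ± 0.89 in grafts and 0.61 ± 0.06 before grafting, so that both were lower in grafts relative to the marker mean, though inside the range of the single markers. Aqp7 moved with the markers, with a difference of 0.33 and overlapping groups, whereas the other 8 genes did not overlap on this scale. These are descriptions with no test, since the genes were chosen with results known.

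**Figure D4:**
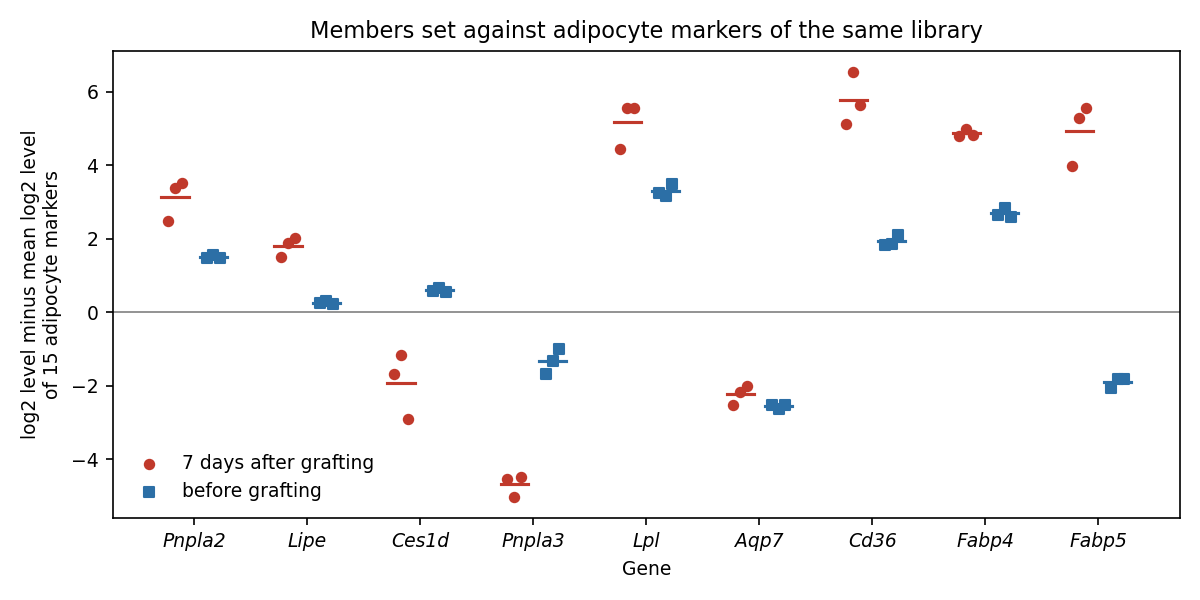
Log2(normalized read count + 1) of each gene minus the mean of the same quantity over 15 adipocyte markers in the same library: circles are the 3 grafts, squares the 3 libraries before grafting, and bars the means. Pnpla3 and Ces1d lie lower in grafts, Aqp7 overlaps, and the other 6 genes lie higher.

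Levels of different genes were compared per kilobase of annotated exon. In grafts the order was Cd36 with 3039 ± 1384 normalized read counts per kb, Fabp5 with 1603 ± 302, Fabp4 with 1446 ± 1131, Lpl with 659.4 ± 217.7, Pnpla2 with 556.5 ± 221.1, Lipe with 122.5 ± 77.9, Ces1d with 28.8 ± 26.1, Aqp7 with 15.2 ± 9.88 and Pnpla3 with 5.37 ± 5.47. Neighbours in this order overlapped over their libraries except Pnpla2 and Lipe, and Lipe and Ces1d. Before grafting Fabp4 led with 21926 ± 5339 per kb, followed by Cd36 with 15821 ± 2228, Pnpla2 with 14040 ± 2618, Lpl with 14009 ± 1607, Ces1d with 9644 ± 1845, Pnpla3 with 3898 ± 1023, Lipe with 3042 ± 538, Fabp5 with 1134 ± 250.5 and Aqp7 with 892.2 ± 95.4. There, Cd36 and Pnpla2, Pnpla2 and Lpl, Pnpla3 and Lipe, and Fabp5 and Aqp7 overlapped with each other. Fabp5 was thus next to last before grafting and stood near the top in grafts, while Ces1d, Pnpla3 and Aqp7 filled the last places in grafts. The order depends on the length used, for small genes and for Lpl. The longest principal transcript of Fabp4 has 896 bp in place of 4489 bp. With such lengths, Fabp4 with 7243 ± 5666 and Fabp5 with 5795 ± 1092 per kb came before Cd36 with 3210 ± 1461 in grafts. For Lpl the length was 4115 bp in place of 10478 bp. Before grafting, Lpl with 35670 ± 4093 per kb then came next after Fabp4. Pnpla2 with 23569 ± 4394 and Cd36 with 16711 ± 2353 followed, and none of these neighbours overlapped.

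The windows before an annotated start of 3 genes that fell are shown for their sequence, those of Pnpla2, Pnpla3 and Cd36. Of the 9 genes, 5 matched the RefSeq promoter table (GRCm38.p6). Of these, Pnpla2, Pnpla3 and Cd36 have a window of 250 bases that overlaps no annotated exon of the 9 genes. They are chr7:141454938-141455187 on the plus strand for Pnpla2, chr15:84167566-84167815 on the plus strand for Pnpla3 and chr5:17835897-17836146 on the minus strand for Cd36. The Cd36 window lies inside the span of that gene, 17781690 to 17888801. Overlap with exons of other genes was not checked. The windows of Aqp7 and Lipe overlap annotated exons of the 9 genes and are not shown. Those of Aqp7 matched no motif searched below. For Lipe, the window at 25395988 to 25396237 held 6 GC boxes and 1 E-box, and its other window no match. Capitals mark GC boxes (GGGCGG, or CCGCCC on the other strand) and CCAAT boxes (CCAAT, or ATTGG on the other strand).
Pnpla2: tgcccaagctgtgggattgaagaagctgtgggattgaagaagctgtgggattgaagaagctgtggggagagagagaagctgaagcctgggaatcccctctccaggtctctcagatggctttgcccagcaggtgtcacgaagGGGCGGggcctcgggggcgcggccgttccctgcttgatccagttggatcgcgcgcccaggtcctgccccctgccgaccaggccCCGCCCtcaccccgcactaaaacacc
Pnpla3: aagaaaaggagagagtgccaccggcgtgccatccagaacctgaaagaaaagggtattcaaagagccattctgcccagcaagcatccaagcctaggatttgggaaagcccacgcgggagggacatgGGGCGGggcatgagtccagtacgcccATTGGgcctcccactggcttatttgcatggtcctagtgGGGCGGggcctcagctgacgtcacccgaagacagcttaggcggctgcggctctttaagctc
Cd36: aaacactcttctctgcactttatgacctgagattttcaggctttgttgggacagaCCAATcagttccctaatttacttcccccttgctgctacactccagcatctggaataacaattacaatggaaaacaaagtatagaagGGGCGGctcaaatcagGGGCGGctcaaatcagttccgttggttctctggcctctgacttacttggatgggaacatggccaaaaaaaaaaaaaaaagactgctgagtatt
Positions count back from the start site. Pnpla2 held GC boxes at -109 and -26, Pnpla3 GC boxes at -125 and -61 with a CCAAT box between them at -99, and Cd36 GC boxes at -109 and -93 and a CCAAT box at -195. Of 32851 windows of the same length, 32.7% held a GC box and 33.8% a CCAAT box, so that such matches are common. E-boxes (CACGTG, in 6.02% of windows), TATA boxes (TATAAA or TTTATA, in 12.4%) and direct repeats of the nuclear receptor sequence AGGTCA (the DR1 type, in 0.0335%) were searched on both strands and not matched by these letters in the 3 windows.

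Among genes that control the lipases or coat the lipid droplet, 10 of 14 tested members fell and 4 rose, where 39.2% of all tested genes fell and 41.3% rose, and the median log2 fold change was -3.08 against 0.28 over all tested genes. This list shares Adrb3, Cidec, Plin1 and Plin4 with the adipocyte markers. G0s2 and Prkacb, also chosen for it, were not listed and have no value. Hilpda, an inhibitor of ATGL that is induced by hypoxia and fatty acids, showed the largest rise: it had 2995, 3107 and 2798 in grafts, against 82.8, 99.3 and 76.7 before grafting. The grafts were close to each other and the mean was 34.4-fold higher (log2 fold change 5.09, SE 0.13, limma adjusted p = 5.97e-07). Plin2, a droplet coat protein of many cell types including macrophages, rose 2.79-fold, with 19663, 16264 and 13569 in grafts, against 4537, 7436 and 5776 before grafting. Abhd5, the co-activator of ATGL, named after its values were seen, had 810.1 ± 31.5 in grafts and 3632 ± 1056 before grafting and fell 4.48-fold (log2 fold change -2.13, SE 0.18, limma adjusted p = 9.26e-05).

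The other named members of that list fell. Adrb3, the beta 3 adrenergic receptor that starts lipolysis in adipocytes, had 19.1, 2.9 and 4.0 in grafts, against 5110, 5330 and 5357 before grafting, and its graft mean was 3.43 without graft replicate 1. Cidec, a droplet protein that limits lipolysis, had 593.6 ± 643.9 in grafts and 27773 ± 5538 before grafting, and a graft mean of 224.1 without graft replicate 1. Cidea, its relative in brown and beige fat, had 1 read in all grafts and 2631 before grafting, a normalized ratio of 2660 before grafting over grafts (95% exact counting interval 475.0 to 104639).

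Of 10 other tested lipid hydrolases, 7 fell and 3 rose, with a median log2 fold change of -1.43. Over all tested genes 39.2% fell and 41.3% rose. A further 10 of the 20 hydrolases chosen were not listed and have no value. Mgll, the monoglyceride lipase that completes triglyceride breakdown, had 1933, 1006 and 578.7 in grafts, against 13063, 16952 and 12903 before grafting, a 12.2-fold lower mean (log2 fold change -3.77, SE 0.38, limma adjusted p = 0.0003). The neutral lipases of each step of triglyceride breakdown, Pnpla2, Lipe and Mgll, were thus all lower in grafts. Ces1f, a neighbour of Ces1d in the same gene cluster, fell 68.3-fold to 51.6 ± 37.0 in grafts, against 3522 ± 667 before grafting, and its graft mean was 32.2 without graft replicate 1. Ces2e had 5.0, 0 and 4.9 in grafts, against 72.0, 52.7 and 60.0 before grafting. Lipa, the acid lipase of lysosomes, rose 3.11-fold, with 4707, 4838 and 4167 in grafts, against 1398, 1460 and 1550 before grafting (log2 fold change 1.63, SE 0.1, limma adjusted p = 1.33e-05). Nceh1, a cholesteryl ester hydrolase of macrophages, rose 5.04-fold, with 1857, 1666 and 1423 in grafts, against 410.2, 249.2 and 321.6 before grafting. Lipa and Nceh1 are thus the reverse of Mgll. Macrophage markers were also higher in the same grafts, and their part in the levels of Lipa and Nceh1 was not tested.

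Partners of lipoprotein lipase moved both ways: of 13 tested, 6 fell, 6 rose and Sel1l, part of the endoplasmic reticulum quality control that Lpl needs, was not called. Over all tested genes 39.2% fell and 41.3% rose, and the counts of the partners were not far from these shares. The median log2 fold change of the partners, 0.25, was near the 0.28 of all tested genes. Of the 21 partners chosen, 7 were not listed and have no value, among them Angptl4, Apoc2 and Apoe. Sdc1, a heparan sulphate proteoglycan of the cell surface, had 7553, 9119 and 6285 in grafts, against 322.4, 274.5 and 276.4 before grafting, 26.3-fold higher (log2 fold change 4.7, SE 0.15, limma adjusted p = 1.08e-06). Sdc4, its relative, rose 7.48-fold. Angptl8, an insulin-responsive inhibitor of Lpl, had 18.1, 15.5 and 14.8 in grafts, against 163.7, 393.1 and 491.8 before grafting. Apoc1 had 75.3, 77.6 and 38.6 in grafts, against 864.8, 1496 and 699.4 before grafting. Apoc3, which inhibits Lpl, had 0 reads in the grafts and 36.5, 84.1 and 42.3 before grafting, at least 18.3-fold lower with the floor set at 3 reads per library. Gpihbp1, the endothelial protein that carries Lpl across the capillary wall, was named after its values were seen. It had 1186, 549.9 and 383.8 in grafts, against 1660, 2493 and 2065 before grafting, 2.93-fold lower (log2 fold change -1.7, SE 0.38, limma adjusted p = 0.0176). Its graft mean was 466.8 without graft replicate 1 in place of 706.6, and its call was lost without graft replicate 2, without replicate 2 before grafting and without replicate 3 before grafting, with an adjusted p of up to 0.107 (limma).

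**Figure D5:**
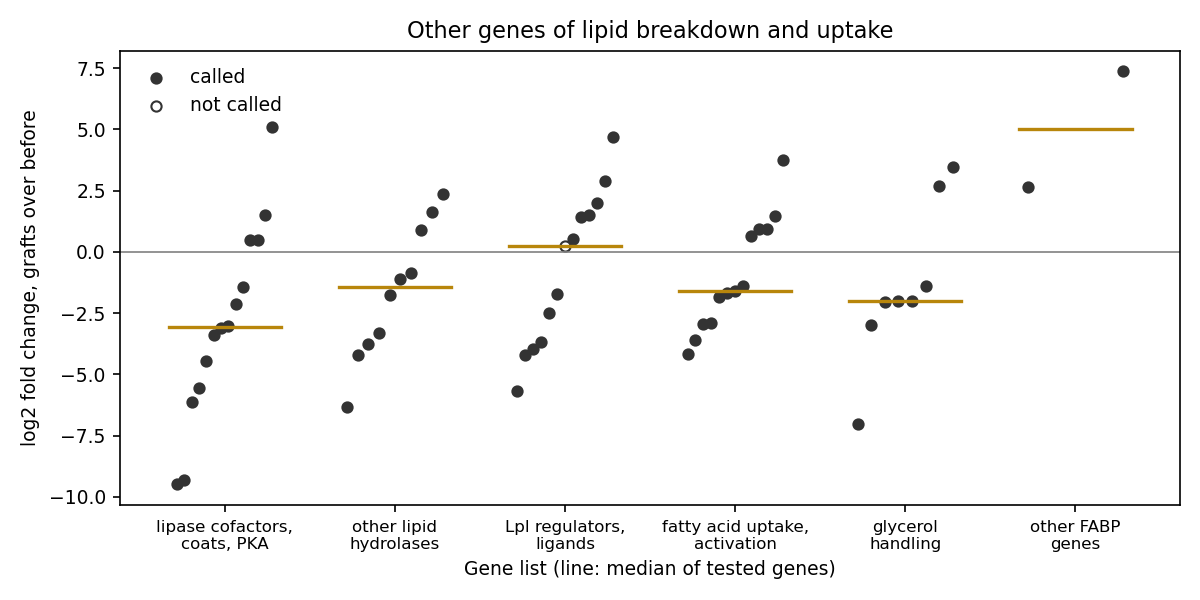
Limma log2 fold change, grafts over before grafting, of each tested gene in 6 lists of related genes; filled points were called, the open point (Sel1l) was not, and lines are list medians. Lipase cofactors have the lowest median, -3.08, and members of 5 of the 6 lists lie on both sides of 0.

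For fatty acid uptake and activation, 8 of 13 tested genes fell and 5 rose, with a median log2 fold change of -1.59. Over all tested genes 39.2% were lower and 41.3% higher. Of the 18 uptake and activation genes chosen, 4 were not listed. Acsl1, the main acyl-CoA synthetase of adipocytes and itself one of the adipocyte markers, had 1931 ± 628 in grafts and 33899 ± 5167 before grafting, 17.6-fold lower. Cavin2, a caveola coat gene, fell 11.8-fold to 708.7 ± 141.5 in grafts, against 8386 ± 719 before grafting. Slc27a1, fatty acid transport protein 1, fell 7.46-fold to 1995 ± 561 in grafts, against 14885 ± 2085 before grafting. Among those that rose, Acsl4, which prefers arachidonate, had 2211 ± 314 in grafts and 805.9 ± 73.4 before grafting, 2.74-fold higher. Acsl6, a related synthetase with few reads, had 39.2, 46.5 and 65.3 in grafts, against 7.9, 0 and 4.9 before grafting. Different acyl-CoA synthetases thus moved in opposite directions.

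Of 8 other members of the binding protein family, 5 were not listed and have no value. The listed ones, Fabp7, Fabp3 and Fabp12, were scarce, and Fabp12 was too low to be tested. Fabp7, the brain type, had 270.2, 183.3 and 177.1 in grafts and 1 read in all libraries before grafting, a normalized ratio of 641 (95% exact counting interval 113.0 to 25035). Fabp3, the heart type, had 27.1, 16.5 and 73.2 in grafts, against 5.9, 6.1 and 2.0 before grafting (log2 fold change 2.66, SE 0.61, limma adjusted p = 0.0188). Its graft mean was 21.8 without graft replicate 3 in place of 38.9, and the call was lost in 4 of 16 alternatives, among them leaving out graft replicate 3 and replicate 3 before grafting, with an adjusted p of up to 0.0798 (limma). The reads behind both genes were few beside those of Fabp4 and Fabp5, as the plot of the binding protein genes shows.

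Of 8 tested genes of glycerol handling, 6 fell and 2 rose (39.2% and 41.3% over all tested genes), with a median log2 fold change of -2.01. Gk5 and Pgp, also chosen, were not listed. Gpd1, which makes glycerol 3-phosphate from glycolysis for triglyceride synthesis, fell most: it had 544.3, 65.9 and 149.4 in grafts, against 19174, 32314 and 19365 before grafting. Its graft mean was 107.7 without graft replicate 1 in place of 253.2. Aqp11 had 13.1, 15.5 and 17.8 in grafts, against 128.2, 150.9 and 113.1 before grafting. Aqp3, another aquaglyceroporin, had 1.0, 6.8 and 4.0 in grafts, against 22.7, 17.2 and 11.8 before grafting, and its call (limma adjusted p = 0.0461) was lost in 8 of 16 alternatives, with each single library left out except graft replicate 2, without which the graft mean was 2.48 in place of 3.92. Gk, the glycerol kinase, had 1148, 1491 and 2066 in grafts, against 127.2, 160.1 and 126.9 before grafting, 11.4-fold higher (log2 fold change 3.46, SE 0.21, limma adjusted p = 1.78e-05). Aqp9, the aquaglyceroporin of liver and leukocytes, had 114.5, 174.6 and 172.1 in grafts, against 26.6, 17.2 and 24.6 before grafting, 6.74-fold higher. The glycerol channel genes Aqp7 and Aqp9 thus had opposite directions. Neutrophil and macrophage markers were higher in the same grafts, and their part in the level of Aqp9 was not tested.

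The genes whose pattern over the 6 libraries was most like each of the 9 were found by root mean square distance in log2(value + 1), each gene centred on its mean before grafting, among 8034 candidates. For Pnpla2 they were Pfkfb1 (0.09) and Aldh1l1 (0.14), for Lipe Arxes2 (0.06) and Negr1 (0.14), for Lpl Rxrg (0.12), and for Aqp7 Tdrp (0.11) and Igfals (0.2). Ces1d had no close match, with Pck1 and Adrb3 both at 0.8, and Pnpla3 was nearest to Adrb3 (0.26) and Tmem45b (0.6). Nearest to Cd36 were Cobll1 (0.13) and Fam124a (0.15), to Fabp4 Sncg (0.2) and Dcst2 (0.21), and to Fabp5 Ddx28 (0.05) and Tmem237 (0.11). These distances are descriptions, and the libraries share depth and tissue make-up across all genes.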

How the data were processed

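Total RNA of 6 fat libraries was sequenced on an Illumina platform, per the labels' protocols. Each deposited value is a signal per gene, read counts that the authors divided by 1 factor per library. The values show this, being whole multiples of 1 step per library (0.96979 to 1.01304, within 0.01 reads). Levels per kilobase use the exon length (unit: other) that the authors deposited with each gene. Bowtie 0.12.2, HISAT2 2.0.5, mm8 and mm9 are listed in the submitters' processing notes. The coordinates instead match GRCm38 (12151 of 12163 genes found in GENCODE M21, 12029 of them within 1000 bp). The sources used here name no counter, strand setting or normalization tool.

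The 10854 genes that reached 10 normalized reads in 3 or more libraries were fitted as log2(value + 1) with limma 3.58.1 in R 4.3.3 (mean trend, robust, two-sided, group as the only term). P-values were Benjamini-Hochberg adjusted over 55450 annotated genes, unlisted ones at a p of 1. Fold changes on this scale are understated for low genes. The variance prior comes from genes selected on the outcome, a limit of every p. A 0 was bounded at 3 reads per library, and 1 read got an exact binomial interval, both for counting error only. Ratios within a library were tested by exact permutation in Python 3.11.15 with scipy 1.17.1, numpy 2.4.6 and pandas 2.3.3. Figures used matplotlib 3.10.9. The fit was tested on simulated data in which most genes did not change. Most genes were called in the real libraries, so the simulation does not show how the fit performs on them.

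The 9 genes and all lists were chosen with earlier results of these data known. Named beside the 9 were, per list, all called genes where 6 or fewer, otherwise the 3 called lower and 2 called higher with the largest change, and the 2 nearest genes (mean of at least 100) for each of the 9. Abhd5 and Gpihbp1 were added. A gene named by this rule is not reported here. Alternatives were the pseudocount, filter, scaling, variance model, adjustment, replicate block and each library left out. Per-kilobase levels with the longest principal transcript were added after seeing the data.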

Additional observations from a re-analysis of the deposited data

How the results depend on the processing

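Under 17 alternatives the 8 genes called lower kept their direction and their call in 17 of 17, with Cd36 ranging from -3.23 to -2.07 on the log2 scale and Pnpla3 from -10.38 to -8.96. Fabp5 ranged from -0.23 to 0.67. It turned to -0.23 with the ribosomal protein genes at no change, and it was called higher, so that the number of the 9 genes called higher was 1 in place of 0, when p was adjusted over tested genes only and when replicate 2 before grafting was left out (0.67, the range of that number with 1 library left out being 0 to 1). The cause was not tested. Pnpla2 over Lipe differed by -0.01 to 0.26 on the log2 scale with 1 library left out (-0.01 without graft replicate 2), Lpl over Lipe by 0.19 to 0.57 and Fabp4 over Fabp5 by -5.13 to -4.35. Over all tested genes, 1939 were higher with the ribosomal protein genes at no change, in place of 4479. With 1 library left out, 3752 to 4130 were higher and 3326 to 4014 lower. Without the filter on low values the median log2 fold change was -0.3, and with equal upper quartiles 0.09.

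The sample labels used here give no pairing of libraries by animal. Same-numbered libraries correlated at -0.157, -0.127 and 0.041 after removing group means. With 3 libraries a group, these values cannot settle whether samples were paired. With the replicate block, 8 of the 9 genes were lower, and 3912 genes were higher and 3644 lower over the whole table. With the ribosomal genes at no change, 2 lipase cofactors rose in place of 4, and 2 uptake genes in place of 5, while 7 blood endothelial markers fell in place of 4. The count models edgeR and DESeq2, planned as alternatives, were not run. The values of graft replicates 1 and 3, as of the other libraries, were whole multiples of their step within 0.01 reads. Read numbers given for genes near 0 rest on the steps found in the values. At this depth the 3 grafts together held 1 read of Cidea and 0 of Apoc3, and Pnpla3 had 2.9 to 18.1 normalized read counts per graft, so their fold changes are imprecise.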

Other observations

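Genes annotated inside the hydrolase loci had the same direction as their hosts. Within Pnpla3, Mir6392 on the same strand had 0 reads in the grafts and 88.7, 169.2 and 139.7 normalized read counts before grafting, at least 44.7-fold lower in grafts. On the opposite strand of Pnpla3, the processed pseudogene Gm20369 had 0 reads in the grafts and 16.8, 56.7 and 66.9 before grafting, at least 15.8-fold lower. Gm49513, on the strand of Pnpla3 and sharing 105 exon bases with it, was too low to be tested. Its values were 0 in the grafts and 2.0, 19.2 and 7.9 before grafting. Gm45909, on the strand of Ces1d and outside its exons, had 0 reads in the grafts and 87.8, 243.1 and 174.1 before grafting, at least 56.8-fold lower. The antisense gene of Lipe, 4732471J01Rik, had 14.1, 7.8 and 14.8 in grafts, against 77.9, 122.6 and 116.1 before grafting, a log2 fold change of -3.03. Whether these reads belong to the small genes or to unspliced or other transcripts of their hosts was not tested.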
